A study of Mus musculus with 26 samples.

Results

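Transcripts of 37 extracellular matrix and basement membrane genes were followed in RNA recovered by IMP2 immunoprecipitation from brown fat of mice, among 9378 genes counted in the same libraries. The genes were chosen by name from the symbols the deposited table gives: every collagen alpha chain, every laminin chain, and a fixed set of 16 other matrix proteins, of which 14 were listed. Where a symbol had several transcripts, the one with the largest sum of counts stood for it, so that 40 transcripts gave the 37 genes. Of these, 35 averaged at least 10 counts over the 4 libraries of the table and entered the comparisons by fold. Col14a1 and Col8a1 did not. Only Col6a1 and Hspg2 are among the 1189 genes of the other brown fat table.

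The collagens, laminins and proteoglycans are secreted proteins that assemble outside the cell. Fibrillar collagens form the tensile fibres of the interstitial matrix, while type IV collagen, laminins, nidogen and perlecan form the basement membrane, the thin sheet that surrounds each adipocyte and each capillary. Collagen VI makes beaded microfilaments close to the basement membrane and is an abundant matrix component of adipose tissue. Fat-tissue fibroblasts and progenitors, endothelial cells, pericytes and adipocytes all contribute matrix mRNAs.

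IMP2, the product of Igf2bp2, binds mRNAs in the cytoplasm and influences how long they last and how they are translated. RNA was sequenced after immunoprecipitation (IP) of IMP2, after IP with nonspecific IgG, and from total tissue RNA. All brown fat came from male mice of 10 weeks on the C57Bl/6J background, fed normal chow and kept at 4 °C overnight before the tissue was taken. Knockout mice (Imp2-/-) and their wild-type littermates came from matings of heterozygotes. The deletion affects every cell of the mouse.

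The IgG table holds 1 wild-type IMP2 IP (library 25), 1 wild-type IgG IP (library 26) and 2 wild-type total RNA libraries (15 and 20). The knockout table holds 2 libraries each of knockout IMP2 IP (23 and 24), knockout total RNA (18 and 19), wild-type IMP2 IP (21 and 22) and wild-type total RNA (16 and 17). The series has 26 samples, and its 14 liver samples were not analysed here. Whether libraries of 1 group came from different animals is not said in the labels, so tests measure the spread between these libraries, which may be technical. The 2 single-library groups of the IgG table have no replicate check.

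Summed counts over genes were 1321361 in the IMP2 IP, 3749075 in the IgG IP, and 1466110 and 2700414 in total RNA of the IgG table, and 780161 to 4915604 per library in the knockout table. Levels are given as CPM, a gene's count relative to its library's total after TMM scaling, and transcript lengths were not used, so levels are compared between libraries and not between genes. Log2 counts of replicate libraries correlated across genes with a Pearson r of 0.943 to 0.979, and the libraries differed by more than counting error. The tissue label was checked against 8 brown adipocyte markers, all listed: Ucp1, the uncoupling protein of heat production, stood at 6919 CPM in the IMP2 IP, 6399 in the IgG IP, and 5984 and 5308 in total RNA. Igf2bp2 had 8 counts in the IMP2 IP, 16 in the IgG IP, and 20 and 16 in total RNA of the IgG table, all of them wild-type. Igf2bp2 in the knockout libraries was not analysed here, and the genotype labels were not tested on the deleted gene.

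The 37 genes together took 0.314% of the counts in the IMP2 IP and 0.282% in the IgG IP, against 0.364% and 0.286% in the total RNA libraries. In scaled CPM they summed to 3264 in the IMP2 IP and 2579 in the IgG IP, against 3749 and 2923 in total RNA. By both measures the IMP2 IP lay between the total RNA libraries and the IgG IP below both. A gene was counted as higher or lower in an IP where its scaled CPM differed at least 2-fold, in the same direction, from every library it was set against. With 1 library per IP this rule carries no p-value. A second reading came from edgeR's quasi-likelihood test over 8965 genes, which takes the spread from the 2 total RNA libraries alone (1 residual degree of freedom) and assumes that each IP varies as they do. That spread was pooled over genes, so a gene's own difference between these 2 libraries hardly entered its p-value. Values written as log2 with a standard error come from this test, and other ratios and medians are of scaled CPM.

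Against total RNA, the IMP2 IP held 5 of the 35 matrix mRNAs at a lower level by the 2-fold rule (Lum, Dcn, Postn, Lama5 and Nid1), while 5.12% of all 8568 genes were that low. It held 2 at a higher level (Col6a1 and Col18a1), while 1.8% of all genes were that high. The median log2 ratio over the 35 genes was -0.14, beside 0.02 over all genes, and 13 genes lay above 0 and 22 below. The IgG IP held 7 of the 35 at a lower level than total RNA (Lum, Dcn, Postn, Fn1, Fbn1, Fbln2 and Col1a1; 4.8% of all genes) and 2 at a higher level (Col20a1 and Lamb1; 3.07% of all genes). Its median was -0.56, beside 0.03 over all genes, with 12 genes above 0 and 23 below. EdgeR called 4 of the matrix mRNAs lower in the IMP2 IP than in total RNA (Lum, Dcn, Postn and Lama5; 0.859% of all genes) and 4 lower in the IgG IP (Lum, Dcn, Postn and Fbn1; 1.53% of all genes). The IPs were measured against the same total RNA libraries, so these columns are not independent of each other.

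**Figure D1:**
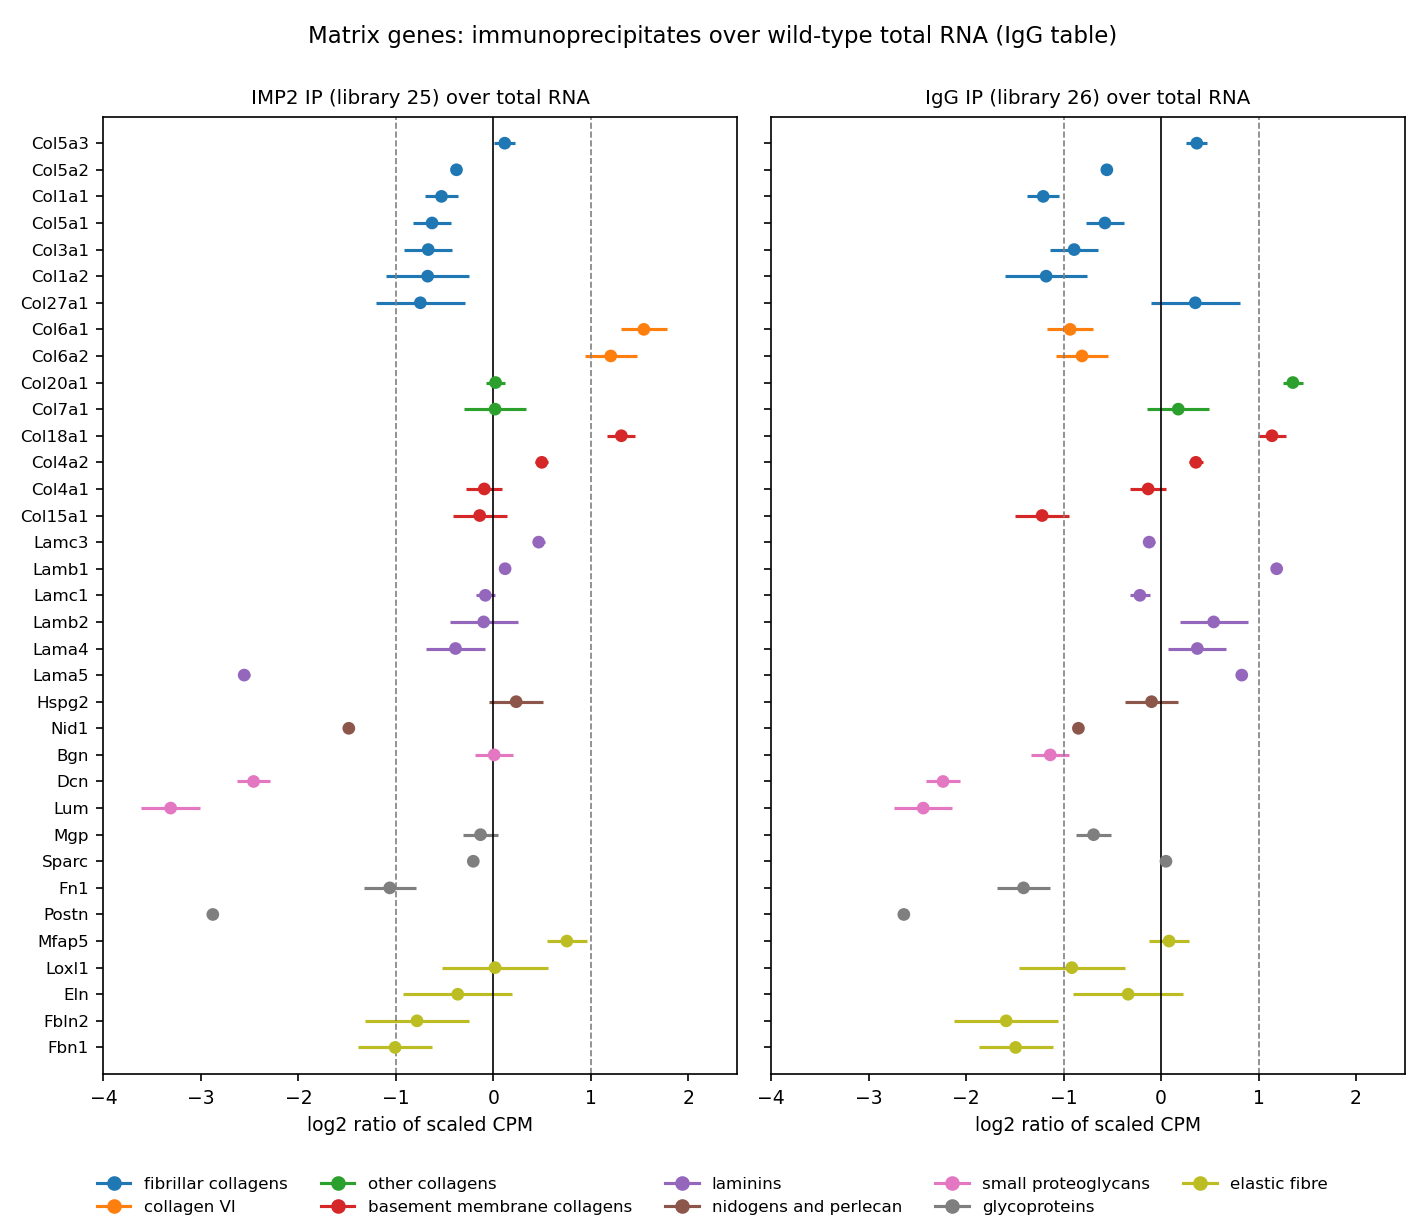
Log2 ratio of scaled CPM in the IMP2 IP (left) and in the IgG IP (right) over wild-type total RNA for the 35 matrix genes, coloured by role. Points are means over the 2 total RNA libraries, bars run between the ratios to each of them, and dashed lines mark 2-fold; Lum, Dcn and Postn lie far to the left in both panels, Lama5 in the left panel only, and Col6a1 and Col6a2 lie to the right on the left and to the left on the right.

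Collagen VI had the highest ratio of IMP2 IP to IgG IP among the members. Col6a1 encodes the alpha 1 chain and Col6a2 the alpha 2 chain, and 1 of each joins an alpha 3 chain in the basic unit of the filament. Col6a1 stood at 438 CPM in the IMP2 IP, 78.6 CPM in the IgG IP, and 176 and 128 CPM in total RNA. The IMP2 IP was thus above both total RNA libraries, and the IgG IP was below both.

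By edgeR, Col6a1 was higher in the IMP2 IP than in total RNA by log2 1.53 ± 0.38 (SE, adjusted p = 0.0129). It was higher in the IMP2 IP than in the IgG IP by log2 2.48 ± 0.48 (adjusted p = 0.000569), with 1 library on each side and a spread taken from total RNA. A fit of all 12 libraries pooled library 25 with the wild-type IMP2 IPs of the knockout table. There the ratio of IMP2 IP to IgG IP was log2 1.72 ± 0.43 (adjusted p = 0.0779), and without library 25 it was log2 0.81 (adjusted p = 0.362). The counts behind the ratio of the IPs were 557 in the IMP2 IP and 322 in the IgG IP, and the ratio was 5.57-fold (4.85 to 6.41, exact 95% interval). Such intervals cover counting error only, since reads without molecular identifiers are not independent molecules.

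Col6a2 followed the same pattern, at 189 CPM in the IMP2 IP, 46.6 CPM in the IgG IP, and 98.4 and 68.0 CPM in total RNA. Again the IMP2 IP exceeded both total RNA libraries and the IgG IP lay below them. The ratio of IMP2 IP to IgG IP was 4.05-fold (3.33 to 4.92), with log2 2.01 ± 0.49 by edgeR (adjusted p = 0.0218). Against total RNA the ratio was log2 1.19 ± 0.40 (adjusted p = 0.176), and it was under 2-fold against library 15, so Col6a2 was not among the genes counted as higher there.

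Few genes of any kind were called higher in the IMP2 IP by edgeR. Against total RNA they were 4 of 8965 (0.0446%), namely Col6a1, Mospd3, Lars2 and Ano1. Against the IgG IP they were 5 (0.0558%), namely Col6a1, Col6a2, Mospd3, Eno1b and Cish. The non-members are named here because the counts are small.

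The alpha 3 chain gave different values. Its transcripts carry no symbol in the table and were named by accession, so Col6a3 falls outside the rule and was looked at after the values of its partners were seen. It stood at 32.2 CPM in the IMP2 IP, 35.4 CPM in the IgG IP, and 68.9 and 48.0 CPM in total RNA. Both IPs lay below total RNA, and the ratio of IMP2 IP to IgG IP was log2 -0.12.

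Col6a1 (chr10:76708792-76726044, GRCm38.p6, the build also called mm10) and Col6a2 (chr10:76595756-76623630) lie on the minus strand, 85161 bases apart with 2 genes between them. The 250 bases upstream of each start are shown because both genes were higher in the IMP2 IP than in the IgG IP. They come from the RefSeq promoter table of GRCm38.p6, are written 5′ to 3′ on the gene's strand, and cover chr10:76726045-76726294 for Col6a1 and chr10:76623631-76623880 for Col6a2. Capitals mark the GC box GGGCGG on either strand, which appears as its reverse complement CCGCCC in Col6a2.
Col6a1: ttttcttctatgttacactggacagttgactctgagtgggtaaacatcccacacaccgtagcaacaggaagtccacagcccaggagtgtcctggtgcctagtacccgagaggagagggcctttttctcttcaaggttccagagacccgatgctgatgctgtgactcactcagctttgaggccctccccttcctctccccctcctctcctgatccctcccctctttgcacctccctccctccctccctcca
Col6a2: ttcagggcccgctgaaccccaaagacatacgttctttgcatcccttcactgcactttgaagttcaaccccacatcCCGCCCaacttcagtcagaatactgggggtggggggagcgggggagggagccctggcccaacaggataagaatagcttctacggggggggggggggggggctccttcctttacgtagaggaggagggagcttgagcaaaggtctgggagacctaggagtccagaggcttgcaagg

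The Col6a1 stretch holds no GGGCGG, and neither stretch holds the TATA sequence TATAAA. Both motifs were searched on both strands of the windows from 250 bases before to 50 bases after each start. GGGCGG was found in 66.7% of 27 windows of the 24 members in the promoter table and in 35.7% of all 32851 windows. TATAAA was found in 7.41% of the members' windows and in 13.6% of all windows. The counts of an IP are of transcripts, and these matches only describe the sequences.

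The small leucine-rich proteoglycans bind collagen fibrils and control their spacing and width. Lum (lumican) stood at 3.15 CPM in the IMP2 IP, 6.35 CPM in the IgG IP, and 42.9 and 28.3 CPM in total RNA. Both IPs were below both total RNA libraries, with 4 counts in the IMP2 IP and 26 in the IgG IP, against 61 and 75 in total RNA. By edgeR, Lum was lower than in total RNA by log2 -3.47 ± 0.78 in the IMP2 IP (adjusted p = 0.0031) and by log2 -2.46 ± 0.60 in the IgG IP (adjusted p = 0.00597).

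Dcn (decorin) stood at 11.01 CPM in the IMP2 IP, 13.2 CPM in the IgG IP, and 70.3 and 55.5 CPM in total RNA. Here too both IPs lay below total RNA, by log2 -2.51 ± 0.57 in the IMP2 IP (adjusted p = 0.00329) and by log2 -2.25 ± 0.49 in the IgG IP (adjusted p = 0.00207). The IPs could not be told from each other for either gene at this depth: the ratio of IMP2 IP to IgG IP was 0.495 (0.126 to 1.43) for Lum and 0.835 (0.428 to 1.52) for Dcn. Dcn (chr10:97479500-97518163) and Lum (chr10:97565501-97572703) are neighbours, 47337 bases apart with 0 genes between them.

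Bgn (biglycan), the third of these proteoglycans, behaved otherwise. It stood at 190 CPM in the IMP2 IP, 85.7 CPM in the IgG IP, and 216 and 165 CPM in total RNA. The IMP2 IP lay between the total RNA libraries, and the IgG IP lay below both. The ratio of IMP2 IP to IgG IP was 2.21-fold (1.87 to 2.61), which passed the 2-fold rule but not edgeR's test (adjusted p = 0.626).

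The glycoproteins showed the same contrast between members. Postn (periostin), a matricellular protein that binds collagen and integrins, stood at 5.50 CPM in the IMP2 IP, 6.84 CPM in the IgG IP, and 44.3 and 41.9 CPM in total RNA. Both IPs lay far below total RNA, by log2 -2.96 ± 0.68 in the IMP2 IP (adjusted p = 0.0039) and log2 -2.65 ± 0.57 in the IgG IP (adjusted p = 0.00134). The counts were 7 in the IMP2 IP and 28 in the IgG IP, and the ratio of 0.805 (0.297 to 1.89) did not separate the IPs.

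Sparc (osteonectin), a collagen-binding glycoprotein secreted by adipocytes and stromal cells, stood at 420 CPM in the IMP2 IP, 502 CPM in the IgG IP, and 483 and 486 CPM in total RNA. All 4 libraries were close, and the ratios to total RNA were log2 -0.21 ± 0.40 for the IMP2 IP (adjusted p = 0.952) and log2 0.05 ± 0.40 for the IgG IP (adjusted p = 0.976). Mgp, a matrix protein that inhibits calcification, stood at 27.5 CPM in the IMP2 IP, 18.8 CPM in the IgG IP, and 26.7 and 34.4 CPM in total RNA. Fn1 (fibronectin), the adhesive glycoprotein bound by integrins, stood at 6.29 CPM in the IMP2 IP, 5.13 CPM in the IgG IP, and 11.2 and 16.6 CPM in total RNA, and both IPs lay below total RNA.

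**Figure D2:**
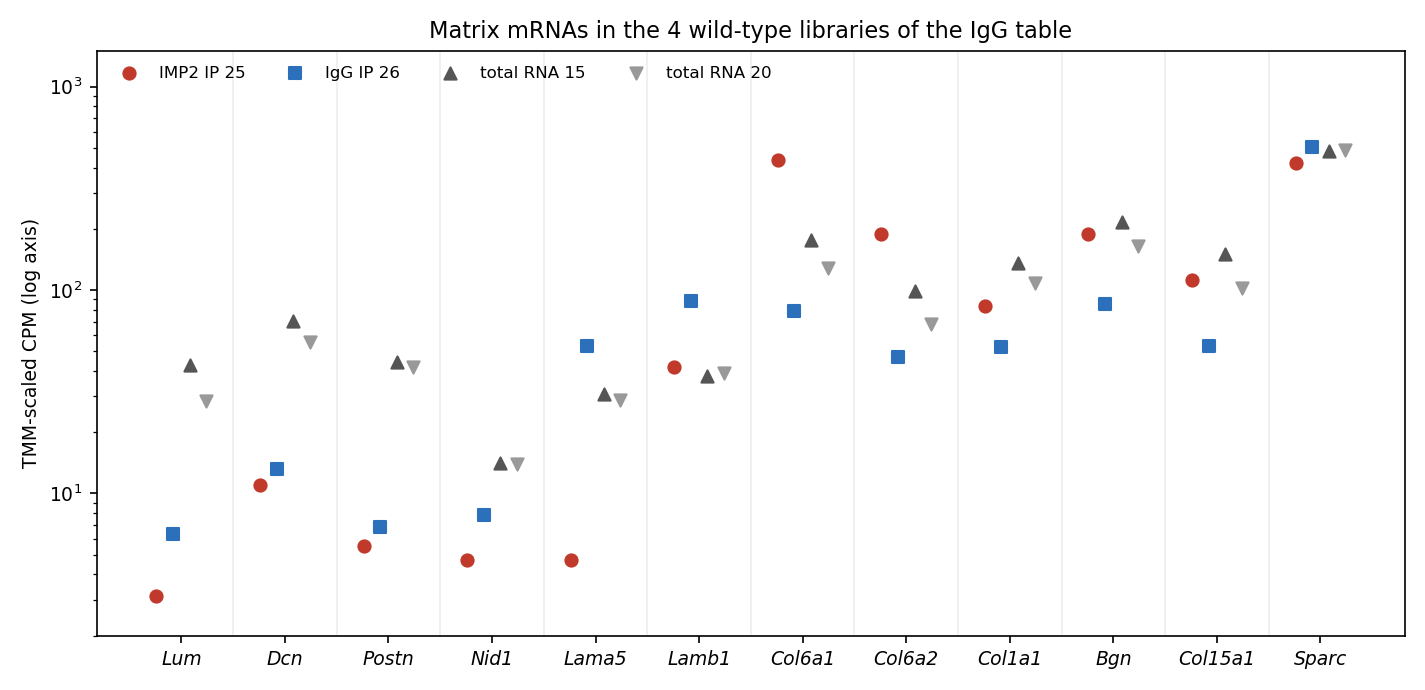
Scaled CPM (log axis) of 12 matrix genes in each of the 4 wild-type libraries of the IgG table. Lum, Dcn and Postn are low in both IPs, Lama5 is low in the IMP2 IP alone, Col6a1 and Col6a2 are highest in the IMP2 IP and lowest in the IgG IP, and Sparc is alike in all 4.

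Laminins are the cross-shaped trimers that start basement membrane assembly, and their chains did not share a pattern. Lama5, the alpha chain of the laminins of mature vessel and epithelial basement membranes, stood at 4.72 CPM in the IMP2 IP, 53.2 CPM in the IgG IP, and 30.9 and 28.7 CPM in total RNA. It was thus lowest in the IMP2 IP and highest in the IgG IP. Lama5 was lower in the IMP2 IP than in total RNA by log2 -2.65 ± 0.68 (adjusted p = 0.0159) and lower than in the IgG IP by log2 -3.48 ± 0.70 (adjusted p = 0.00108).

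The counts of Lama5 were 6 in the IMP2 IP and 218 in the IgG IP, a ratio of 0.0886 (0.0322 to 0.196). Only 0.178% of all genes were called lower in the IMP2 IP than in the IgG IP. The locus (chr2:180176373-180225904) overlaps Mir7005 and the predicted gene Gm52542, and whether counting used the strand is not given in the sources used here. In all, 14 of the 37 loci overlap another annotated gene.

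Lamb1, a beta chain found in most laminins, stood at 41.7 CPM in the IMP2 IP, 87.9 CPM in the IgG IP, and 37.9 and 38.9 CPM in total RNA. The IgG IP alone stood apart, at log2 1.19 ± 0.41 over total RNA (adjusted p = 0.106). Lamb2, the beta chain of vascular and synaptic laminins, stood at 53.5 CPM in the IMP2 IP, 83.8 CPM in the IgG IP, and 45.0 and 73.3 CPM in total RNA. Lama4, an alpha chain of capillary and adipocyte basement membranes, stood at 44.8 CPM in the IMP2 IP, 76.4 CPM in the IgG IP, and 47.8 and 72.5 CPM in total RNA.

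For Lamb2 and Lama4 the IgG IP was above both total RNA libraries, close to library 20 and well above library 15. The remaining chains, Lamc1 and Lamc3, had ratios of IMP2 IP to IgG IP of 1.09 (0.756 to 1.54) and 1.49 (0.94 to 2.31). Over the 6 laminins the median log2 ratio of IMP2 IP to IgG IP was -0.70, beside 0.02 over all genes.

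Nidogen and perlecan link the laminin and collagen IV networks. Nid1 (nidogen 1) stood at 4.72 CPM in the IMP2 IP, 7.82 CPM in the IgG IP, and 14.1 and 14.0 CPM in total RNA. Both IPs lay below total RNA, with 6 counts in the IMP2 IP, 32 in the IgG IP, and 20 and 37 in total RNA. The IMP2 IP passed the 2-fold rule, yet edgeR gave log2 -1.56 ± 0.80 (adjusted p = 0.63). Hspg2 (perlecan), the large heparan sulphate proteoglycan of basement membranes, stood at 758 CPM in the IMP2 IP, 603 CPM in the IgG IP, and 779 and 533 CPM in total RNA. Both IPs lay between the total RNA libraries.

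The 4 basement membrane collagens differed in how their levels in the IPs compared with total RNA. Col4a1, the alpha 1 chain of the type IV network, stood at 112 CPM in the IMP2 IP, 110 CPM in the IgG IP, and 136 and 105.8 CPM in total RNA. Its partner chain Col4a2 had log2 ratios to total RNA of 0.49 ± 0.43 in the IMP2 IP (adjusted p = 0.854) and 0.35 ± 0.41 in the IgG IP (adjusted p = 0.747). The loci of these chains overlap at their starts.

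Col15a1, a collagen that bridges basement membranes to the interstitium, stood at 112 CPM in the IMP2 IP, 53.2 CPM in the IgG IP, and 150 and 102.4 CPM in total RNA. The IgG IP was the low library, and the ratio of IMP2 IP to IgG IP was 2.11-fold (1.70 to 2.62; edgeR adjusted p = 0.69). Col18a1, whose C-terminal fragment is endostatin, stood at 10.2 CPM in the IMP2 IP, 9.28 CPM in the IgG IP, and 3.51 and 4.53 CPM in total RNA. Both IPs were above total RNA, but on 5 and 12 counts in total RNA, and edgeR gave adjusted p = 0.732 for the IMP2 IP and 0.463 for the IgG IP.

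Fibrillar collagens tended to lie below total RNA in both IPs, and none passed edgeR's test. Of 7, 6 had a ratio of IMP2 IP to total RNA below 0 on the log2 scale, with a median of -0.63. In the IgG IP 5 were below 0, with a median of -0.58. Col1a2, the alpha 2 chain of type I collagen, stood at 238 CPM in the IMP2 IP, 168 CPM in the IgG IP, and 510 and 284 CPM in total RNA.

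Total RNA library 15 was well above library 20 for Col1a2, and both IPs were below both libraries. Col1a1, the alpha 1 chain, stood at 83.4 CPM in the IMP2 IP, 52.3 CPM in the IgG IP, and 136 and 107.7 CPM in total RNA. Its ratio to total RNA was log2 -1.22 ± 0.43 in the IgG IP (adjusted p = 0.114). Col5a3, a chain of the fibril-initiating type V collagen, stood at 84.1 CPM in the IMP2 IP, 100.4 CPM in the IgG IP, and 83.6 and 72.2 CPM in total RNA, with both IPs above total RNA by less than 1.5-fold.

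Col27a1, a minor fibrillar collagen known from cartilage, stood at 39.3 CPM in the IMP2 IP, 85.0 CPM in the IgG IP, and 91.3 and 48.4 CPM in total RNA. The IMP2 IP was the lowest library, and the IgG IP lay between the total RNA libraries. The ratio of IMP2 IP to IgG IP was 0.463 (0.337 to 0.624).

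Of the other collagens, Col7a1, which forms anchoring fibrils, stood at 14.2 CPM in the IMP2 IP, 16.1 CPM in the IgG IP, and 17.6 and 11.3 CPM in total RNA. Col20a1, a fibril-associated collagen, stood at 3.93 CPM in the IMP2 IP, 10.7 CPM in the IgG IP, and 4.22 and 3.78 CPM in total RNA. It was high in the IgG IP alone, where it had 44 counts, against 6 and 10 in total RNA, and edgeR gave log2 1.43 ± 0.71 (adjusted p = 0.338). Col14a1, which averaged under 10 counts, had 4 counts in the IMP2 IP, 6 in the IgG IP, and 18 and 4 in total RNA. Col8a1, the other member under that minimum, had 2 counts in the IMP2 IP, 13 in the IgG IP, and 3 and 7 in total RNA. EdgeR's test, which has its own filter, included Col14a1 and called it in no comparison of the IgG table.

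Of 5 elastic fibre genes 4 had a log2 ratio of IgG IP to total RNA below 0, with a median of -0.92. Fbn1 (fibrillin 1), the scaffold of microfibrils, stood at 32.2 CPM in the IMP2 IP, 23.2 CPM in the IgG IP, and 85.0 and 50.3 CPM in total RNA. Both IPs lay below both total RNA libraries. Fbn1 was lower in the IgG IP by log2 -1.53 ± 0.46 (adjusted p = 0.0477), and in the IMP2 IP the ratio was log2 -1.06 ± 0.48 (adjusted p = 0.493). Loxl1, an enzyme that crosslinks elastin, stood at 53.5 CPM in the IMP2 IP, 28.1 CPM in the IgG IP, and 77.3 and 36.3 CPM in total RNA.

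The total RNA libraries differed by more than 2-fold for Loxl1 and for Eln (elastin), which stood at 27.5 CPM in the IMP2 IP, 28.3 CPM in the IgG IP, and 52.7 and 24.2 CPM in total RNA. Fbln2 (fibulin 2), which ties elastic fibres to basement membranes, passed the 2-fold rule in the IgG IP, at 4.15 CPM, against 18.3 and 8.69 CPM in total RNA. Mfap5, a microfibril-associated glycoprotein, stood at 18.1 CPM in the IMP2 IP, 11.5 CPM in the IgG IP, and 9.13 and 12.5 CPM in total RNA.

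**Figure D3:**
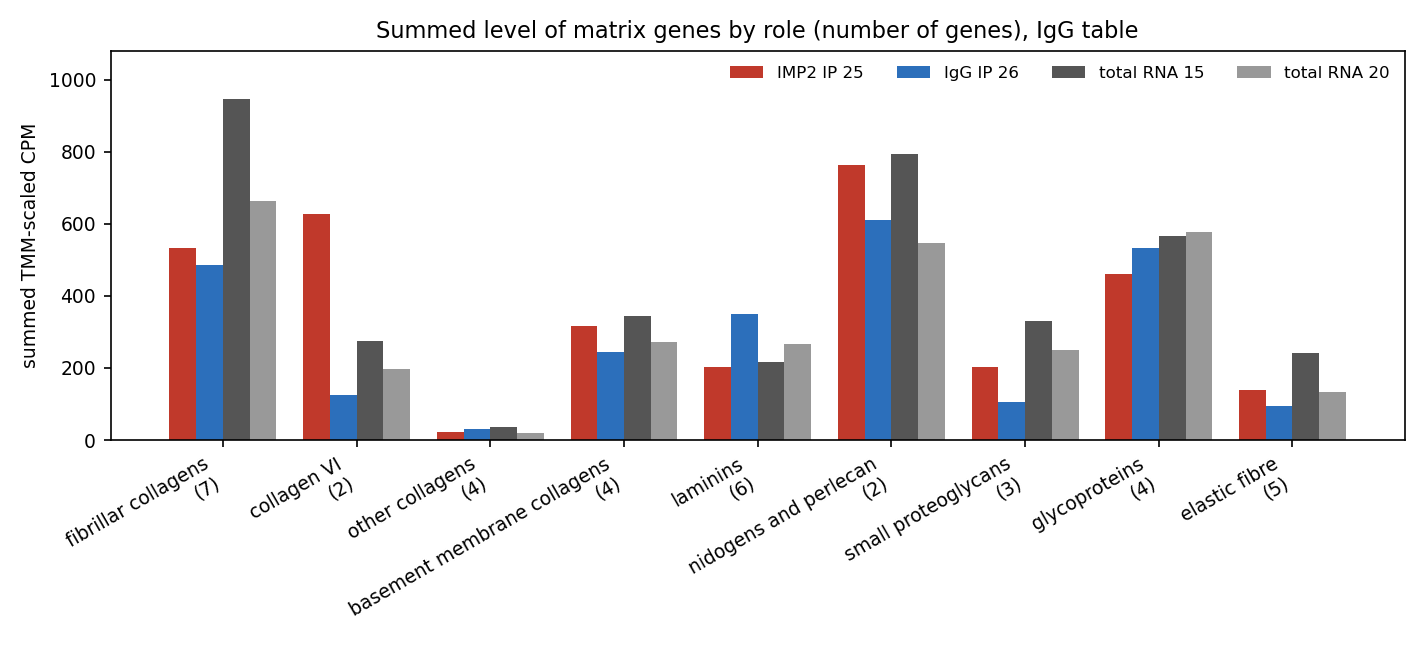
Summed scaled CPM of the matrix genes of each role (number of genes in brackets) in the 4 wild-type libraries of the IgG table; transcript length was not used, so bars are to be read within a role. Collagen VI summed to 627 CPM in the IMP2 IP, 125 in the IgG IP, and 275 and 196 in total RNA, while the small proteoglycans summed to 204 in the IMP2 IP, 105.3 in the IgG IP, and 329 and 249 in total RNA.

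Between the IPs, 4 of the 35 matrix mRNAs were at least 2-fold higher in the IMP2 IP than in the IgG IP (Col6a1, Col6a2, Bgn and Col15a1), beside 5.04% of all genes. A further 4 were at least 2-fold lower (Lama5, Lamb1, Col27a1 and Col20a1), beside 9.75% of all genes. The median log2 ratio was 0.14, beside 0.02 over all genes, with 20 genes above 0 and 15 below.

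**Figure D4:**
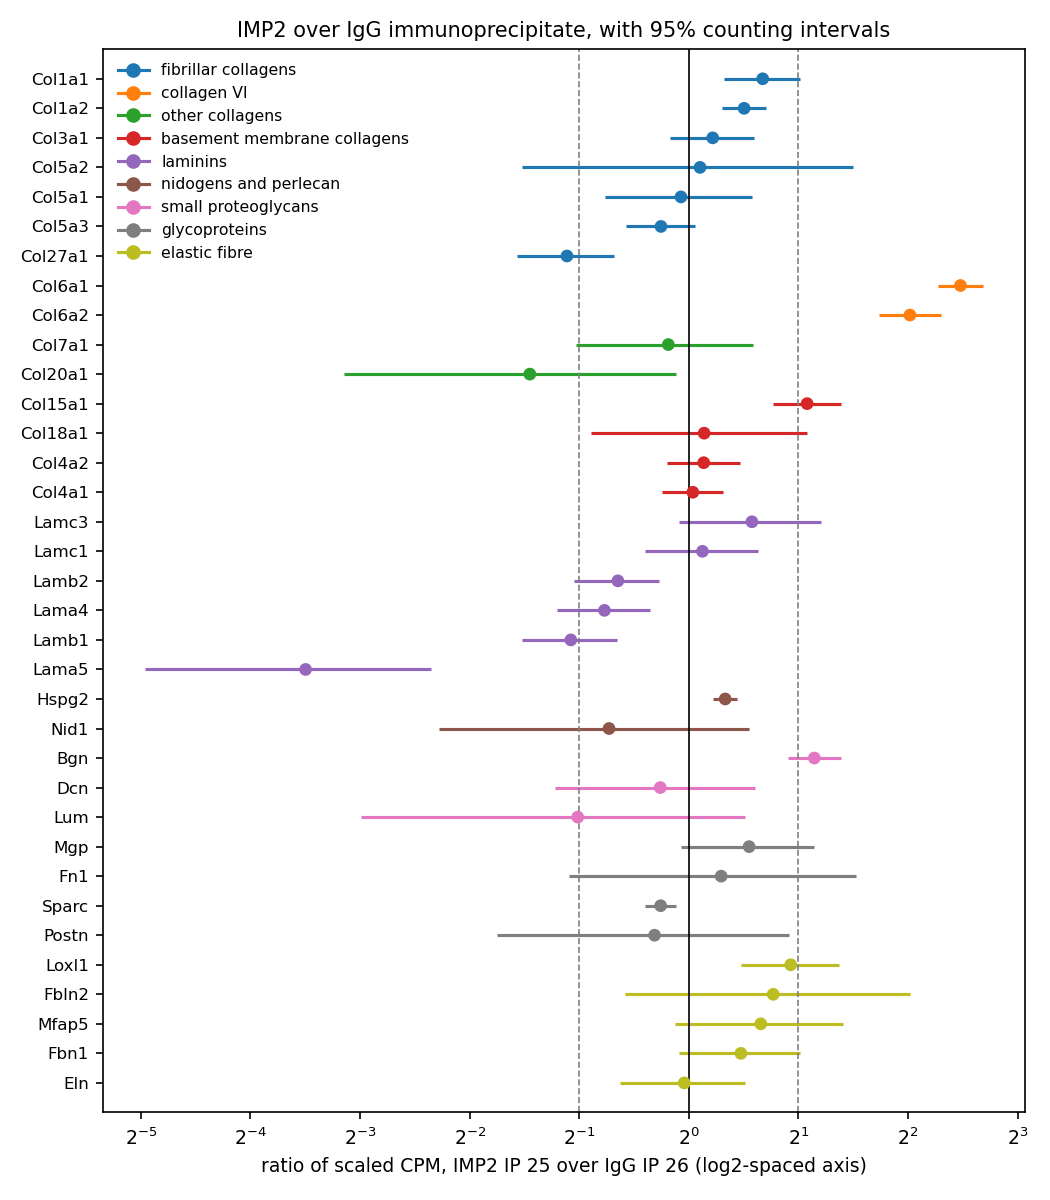
Ratio of scaled CPM in the IMP2 IP over the IgG IP (log2-spaced axis) for the 35 matrix genes, with exact 95% counting intervals from 1 library each; dashed lines mark 2-fold. Col6a1 (5.57) and Col6a2 (4.05) lie furthest right, Lama5 (0.0886) lies furthest left, and the wide intervals of Lum, Nid1, Fn1 and Postn reflect few counts.

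The total RNA libraries set the scale for these ratios. Library 20 was below library 15 for 24 of the 35 genes, with a median log2 difference of -0.21, beside 49.7% of all 8568 genes and a median near 0. The median size of the difference was log2 0.39, beside 0.41 over all genes. Of the matrix genes 3 (8.57%) differed at least 2-fold between these libraries (Loxl1, Eln and Fbln2), beside 13.9% of all genes. Without library 20, the IMP2 IP held 9 matrix genes and the IgG IP 13 at a lower level by the 2-fold rule, and Lum, Dcn, Postn, Lama5 and Nid1 remained among the 9.

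Markers of the cells that make matrix were summed in the same libraries, since in bulk tissue fewer cells of a type and less RNA per cell cannot be told apart. Of 8 fibroblast and progenitor markers 7 were listed, and they summed to 300 CPM in the IMP2 IP, 273 CPM in the IgG IP, and 351 and 279 CPM in total RNA. Of these 6 had enough counts to be tested, and 0 passed the 2-fold rule against total RNA in either IP. The 7 listed of 8 endothelial markers summed to 531 CPM in the IMP2 IP, 617 CPM in the IgG IP, and 518 and 585 CPM in total RNA. Of these 1 passed that rule, Cdh5, which was lower in both IPs. Cdh5 stood at 29.1 CPM in the IMP2 IP, 28.1 CPM in the IgG IP, and 71.7 and 67.6 CPM in total RNA. The 8 pericyte and smooth muscle markers, all listed, summed to 230 CPM in the IMP2 IP, 211 CPM in the IgG IP, and 224 and 185 CPM in total RNA. Of these 0 passed that rule in either IP. All 10 skeletal muscle markers were listed. They summed to 6844 CPM in the IMP2 IP, 5271 CPM in the IgG IP, and 14160 and 7715 CPM in total RNA. Of these 3 were lower in the IgG IP by that rule (Acta1, Tnnt3 and Ckm), and 0 passed it in the IMP2 IP. Of all genes, 5.12% were that low in the IMP2 IP and 4.8% in the IgG IP. The part of any of these cell types in the ratios was not tested.

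Other genes of matrix biology were grouped by function and held to the same 2-fold rule, which 1.8% of all genes passed as higher and 5.12% as lower in the IMP2 IP than in total RNA. For the IgG IP over total RNA these shares were 3.07% and 4.8%, and for the IMP2 IP over the IgG IP 5.04% and 9.75%. Of 17 tested enzymes that fold, crosslink or process matrix proteins, 0 passed the 2-fold rule against total RNA in the IMP2 IP. In the IgG IP 1 was lower, P4hb, the protein disulphide isomerase that is also a subunit of collagen prolyl hydroxylase, at 50.6 CPM, against 106.1 and 121 CPM in total RNA. It stood at 119 CPM in the IMP2 IP. Of the same enzymes 3 were higher in the IMP2 IP than in the IgG IP (P4hb, P4ha2 and Fkbp10) and 1 was lower (Adamts2).

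Serpinh1, the collagen chaperone, stood at 246 CPM in the IMP2 IP, 221 CPM in the IgG IP, and 556 and 363 CPM in total RNA, below total RNA in both IPs. Of 14 proteases and inhibitors 0 passed against total RNA in either IP, and 1, the membrane-bound collagenase Mmp14, was lower in the IMP2 IP, at 40.1 CPM, than in the IgG IP, at 105.3 CPM. Of 12 matrix receptors 0 passed against total RNA in either IP. Ddr2, a receptor for fibrillar collagen, was lower in the IMP2 IP, at 11.8 CPM, than in the IgG IP, at 31.5 CPM. Of 22 other matrix proteins, 1 was lower than total RNA in the IMP2 IP, the proteoglycan Aspn (asporin), and 1 was higher, Ecm2. The call of Ecm2 rests on 10 counts in the IMP2 IP, against 2 and 10 in total RNA. In the IgG IP 2 of the 22 were lower, Aspn and Igfbp7, a secreted protein of vessel basement membranes. Igfbp7 had 15 counts in the IgG IP, against 12 and 32 in total RNA.

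Aspn belongs to the same family of leucine-rich proteins as Lum and Dcn. It stood at 2.36 CPM in the IMP2 IP, 2.69 CPM in the IgG IP, and 9.84 and 9.45 CPM in total RNA, on 3 and 11 counts in the IPs. Between the IPs 5 of the 22 were higher in the IMP2 IP and 2 were lower, beside 5.04% and 9.75% of all genes. EdgeR called 0 genes of these 4 lists in the 3 comparisons of the IgG table, and the lists were not counted in the other fits.

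The knockout table adds replicated IMP2 IPs, and IPs made in the same way from mice labelled as lacking IMP2. For Col6a1 the knockout IPs had 85.8 and 96.1 CPM and knockout total RNA 99.9 and 107.4 CPM, against 140 and 159 CPM in the wild-type IPs and 120 and 184 CPM in wild-type total RNA. Each of the 4 knockout libraries was below each of the 4 wild-type libraries. Among the genes listed there, 3.45% of all genes were ordered that way and 3.53% the opposite way.

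Col6a1 did not differ between IP and total RNA beyond the spread in this table. In knockout mice the ratio of IP to total RNA was log2 -0.19 ± 0.21 (edgeR, n = 2 per group, adjusted p = 0.524). In wild-type mice it was log2 -0.02 ± 0.22 (adjusted p = 0.961), while 10% of all genes were called higher and 12.4% lower. The corresponding shares in knockout mice were 10.6% and 15.7%.

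Knockout over wild-type total RNA gave log2 -0.54 ± 0.21 for Col6a1 (adjusted p = 0.392). The wild-type IP over the knockout IP gave log2 0.71 ± 0.22 (adjusted p = 0.17). The IMP2-dependent recovery, which is the ratio of IP to total RNA in wild-type mice over the same ratio in knockout mice, was log2 0.18 ± 0.30 (adjusted p = 0.999). In each of these last 3 comparisons edgeR called 0% of all genes in either direction.

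At an unadjusted p under 0.05, 74 genes were higher and 58 lower in knockout than in wild-type total RNA, 122 higher and 88 lower in the wild-type over the knockout IP, and 29 higher and 0 lower in IMP2-dependent recovery. DESeq2 called 18 and 17, 61 and 33, and 0 and 0, and limma-voom called 0 in all 3. DESeq2 called Col6a1 in the wild-type over the knockout IP (log2 0.71, adjusted p = 0.0255). Values of IMP2-dependent recovery end at log2 -0.30 over all genes of the table, an edge of what was listed.

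Like Col6a1, skeletal muscle RNA was lower in the knockout than in the wild-type libraries of the same kind of RNA. The 5 listed of 10 muscle markers summed to 194 and 763 CPM in the knockout IPs and 422 and 1780 CPM in knockout total RNA, against 914 and 4441 CPM in the wild-type IPs and 1967 and 7677 CPM in wild-type total RNA. In each of the 4 groups the library with more muscle RNA also had more Col6a1. This was not particular to muscle: the listed brown adipocyte, endothelial and pericyte markers had the same order in each group. The 1 listed white adipocyte marker had the opposite order. The labels do not say whether IP and total RNA libraries shared tissue, so the 4 groups may not be independent of each other. Across genotypes muscle RNA and Col6a1 did not rank alike, since wild-type library 21 had less muscle RNA than knockout library 19 and more Col6a1. In the IgG table the IMP2 IP had less muscle RNA than both total RNA libraries and more Col6a1. The part of muscle RNA in the Col6a1 difference was not tested. No fibroblast marker of the list was analysed in this table.

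Hspg2 had 784 and 721 CPM in the knockout IPs and 666 and 671 CPM in knockout total RNA, against 545 and 707 CPM in the wild-type IPs and 491 and 777 CPM in wild-type total RNA. The wild-type libraries spanned the knockout total RNA libraries. Hspg2 passed no test in this table: the ratio of IP to total RNA was log2 0.17 ± 0.21 in knockout mice (adjusted p = 0.59) and -0.02 ± 0.22 in wild-type mice (adjusted p = 0.952). Its IMP2-dependent recovery was log2 -0.19 ± 0.30 (adjusted p = 0.999). No gene of this table lay below log2 -0.30 in recovery, so the test could hardly find a gene lower. The shares of all genes given for this table hold for the listed genes only.

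**Figure D5:**
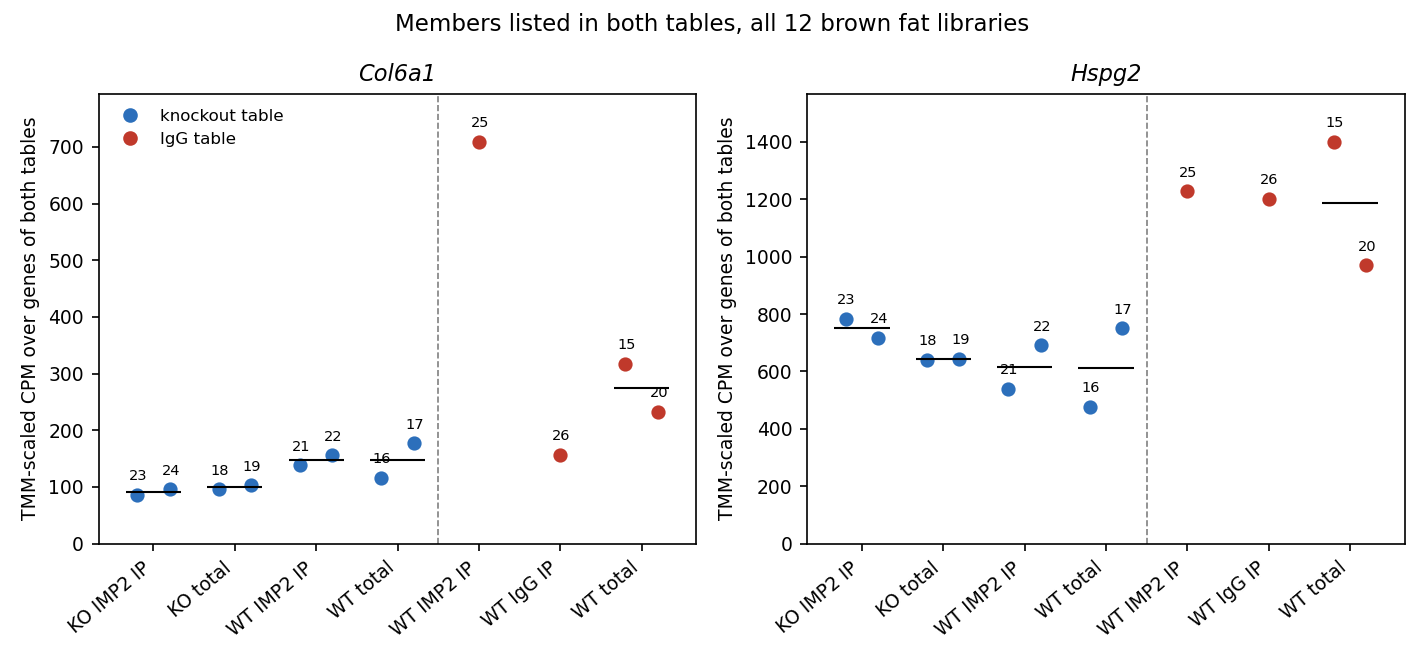
Scaled CPM of Col6a1 (left) and Hspg2 (right) over the genes of both tables, in all 12 brown fat libraries, numbered as in the labels; lines are group means and the dashed line separates the tables. Library 25, the IMP2 IP of the IgG table, stands apart for Col6a1 at 709 CPM, while the wild-type IMP2 IPs of the knockout table stand at 138 and 156.

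The wild-type IMP2 IPs of the tables thus gave different values for Col6a1. On the scale of the 1189 shared genes Col6a1 had 709 CPM in library 25, against 317 and 232 CPM in total RNA of the same table, and 138 and 156 CPM in libraries 21 and 22, against 116 and 177 CPM in theirs. Library 25 was above both total RNA libraries of its table, and libraries 21 and 22 lay between theirs. The difference of the ratio of IMP2 IP to total RNA between the tables, a comparison added after seeing the data, was log2 1.37 ± 0.35 for Col6a1 (unadjusted p = 0.00279). After adjustment over all 1189 genes its p was 0.999, and edgeR called 0 genes, with 13 higher and 26 lower at an unadjusted p under 0.05.

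A model of all 12 libraries with a term for the table gave the single IPs a spread measured in every replicated group. Col6a1 had log2 0.62 ± 0.26 for the IMP2 IP over total RNA (adjusted p = 0.0877; 14% of all genes were called higher and 14.5% lower). It had log2 -1.10 ± 0.41 for the IgG IP over total RNA (adjusted p = 0.0731; 11.6% higher and 11.9% lower) and log2 1.72 ± 0.43 for the IMP2 IP over the IgG IP (adjusted p = 0.0779; 0.336% higher and 1.26% lower). These values rest on library 25: without it the IMP2 IP over total RNA was log2 0.01 and the IMP2 IP over the IgG IP log2 0.81 (adjusted p = 0.982 and 0.362). Without library 17 the adjusted p of the IMP2 IP over total RNA was 0.0169 and that of the IMP2 IP over the IgG IP 0.0407. Without library 20 the IgG IP over total RNA was log2 -1.41 (adjusted p = 0.0276) and the IMP2 IP over the IgG IP had an adjusted p of 0.0315. Hspg2 had log2 0.02, 0.01 and 0.01 in the same comparisons (adjusted p = 0.933 to 0.993).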

How the data were processed

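Brown fat total RNA, IMP2 IP and IgG IP were measured in 12 libraries. The authors deposited whole-number read counts per RefSeq transcript, with no scaling, in a table of 8 libraries (1579 transcripts) and a table of 4 (12840 transcripts). The submitters' processing notes name TopHat2 2.0.8, Cufflinks 2.1.1 and mm10. Not given in the sources used here are the counting tool, its strand setting, the annotation and the rule for listing a transcript. All 1189 genes of the knockout table are also in the IgG table, so its totals are not sequencing depths.

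Samples were grouped by their titles. The 117 and 835 transcripts without a symbol were matched by accession to RefSeq (GRCm38.p6), which named 114 and 813. The 3 and 22 left unnamed took 8.65 to 29.2% and 7.39 to 15.8% of the counts per library and entered neither library sizes nor tests. The transcript with the highest summed count stood for its gene.

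In R 4.3.3, counts were scaled by TMM, with a prior count of 0.5 for CPM ratios, which moves the fold of low genes. Counts were compared by edgeR 4.0.16 (quasi-likelihood F test), with Benjamini-Hochberg adjustment over all genes of the fit at a threshold of 0.05. The fits had 1 residual degree of freedom in the IgG table, 4 in the knockout table and 6 for both tables, and biological coefficients of variation of 25.1, 15.3 and 16.3%. Alternatives used DESeq2 1.42.0, limma 3.58.1 (voom), other scalings, filters, prior count and fold, and leaving out each library. Scripts were tested on simulated counts. Any member could be named; values per library were given for the members with the highest counts of each role and the extremes of each comparison. The members and the lists were chosen with earlier results of these data known.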

Additional observations from a re-analysis of the deposited data

How the results depend on the processing

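Each count of members was recomputed under every alternative. In the IgG table, the count lower in the IgG IP than in total RNA was 7, and became 3 with library size alone, 13 at 1.5-fold, 4 by edgeR's test, and 8 to 13 when 1 total RNA library was left out. The count higher there was 2, and became 1 with a mean of at least 30 counts or a prior count of 2, 4 at 1.5-fold and 0 by edgeR. For the IMP2 IP over the IgG IP the count higher was 4, and became 2 with library size alone or by edgeR (Col6a1 and Col6a2) and 9 at 1.5-fold, while the count lower, 4, became 8 at 1.5-fold and 1 by edgeR (Lama5). For the IMP2 IP over total RNA the count higher was 2, and became 1 with a mean of at least 30 counts or by edgeR (Col6a1). The count lower, 5, became 6 to 9 when 1 total RNA library was left out. Lum, Dcn and Postn were lower than total RNA in both IPs under every one of these settings, and Col6a1 was higher in the IMP2 IP than in total RNA and than in the IgG IP under every one. Library size alone shifted the median of all genes by log2 0.16 for the IgG IP over total RNA and by -0.18 for the IMP2 IP over the IgG IP. Leaving out library 25 or 26 gives no value there, since each is the only library of its group.

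In the other fits the count was 0, and became 1, always Col6a1, by DESeq2 in the wild-type over the knockout IP and, with both tables, higher in the IMP2 IP than in total RNA (upper-quartile scaling, DESeq2), lower in the IgG IP than in total RNA (DESeq2) and higher in the IMP2 IP than in the IgG IP (DESeq2). Leaving out 1 library moved each of the last 3 counts between 0 and 1. The cause was not tested.

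Signs turned only for values that passed no test. For the wild-type IP over total RNA, Col6a1 was log2 0.13, 0.0465 and 0.0394 with upper-quartile scaling, library size alone and limma-voom, and -0.30 to 0.31 with 1 library left out, and Hspg2 was 0.12 and 0.0392 with these scalings and -0.31 to 0.35. With 1 library left out, Hspg2 in knockout over wild-type total RNA ran from -0.22 to 0.44, and IMP2-dependent recovery from -0.11 to 0.51 for Col6a1 and -0.49 to 0.18 for Hspg2. With both tables, Hspg2 ran from -0.12 to 0.21 for the IMP2 IP over total RNA, -0.14 to 0.23 for the IgG IP over total RNA and -0.11 to 0.14 between the IPs, where it was also -0.014, -0.0269, -0.0161, -0.0144 and -0.0387 with relative log expression, upper-quartile scaling, library size alone, DESeq2 and summed transcripts. Upper-quartile scaling shifted the median of all genes by 0.14 for the wild-type and 0.17 for the knockout IP over total RNA, and library size alone by 0.13 for the knockout IP over total RNA.

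No paired analysis was possible because the groups share no replicate number: the labels number the libraries across the series. In the IgG table members with fewer than about 30 counts in an IP have wide counting intervals, and the spread of the IPs was not measured.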
